A study of Mus musculus with 6 samples.

Results

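T-box genes encode transcription factors that share a DNA-binding domain, the T-box, and bind a common DNA element. In the embryonic heart, Tbx5 and Tbx20 are known to activate the genes of the chamber myocardium, and Tbx2 and Tbx3 to repress the same genes in the atrioventricular canal and outflow tract. Tbx18 is known for its expression in the sinus horns and in the epicardium that comes to cover the heart, and Tbx1 for its expression in the pharynx and the second heart field. The 6 genes Tbx1, Tbx2, Tbx3, Tbx5, Tbx18 and Tbx20 were taken from the RNA-seq table by exact match of the gene name, and are 6 of its 23284 genes.

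Ventricles were taken at E9.5 from C57BL/6 chimeric embryos, 3 WT and 3 KD. The embryos were made by tetraploid complementation, in which ES cells injected into tetraploid hosts give rise to the embryo proper. In the KD group (genotype Tbx5ua -/-, named KO in the table) both alleles of the long noncoding RNA gene Tbx5ua carry inserted polyadenylation signals. These lie at its second exon and serve to end transcription early. The paper describes Tbx5ua as transcribed from a Tbx5 promoter, away from Tbx5, and as overlapping an intron of a Tbx5 isoform. The KD ES cell lines were clonal and had their selection cassettes, which carried neomycin resistance or EGFP, removed with Cre. The sources used here do not give the line from which each sequenced KD embryo came. The level of Tbx5ua is not analysed here, and the group labels were therefore not checked against it. The comparison asks what the T-box genes of the ventricle look like when Tbx5ua is cut short, Tbx5 being the gene with which it shares a promoter. The table gives 1 FPKM value (mapped fragments scaled to transcript length and to library size, which makes levels comparable between genes) for each gene and group. With no value for single embryos, no SD or interval can be computed and no test was run, the authors' own test columns were not used, the library depth is unknown, and every difference below is a description of 1 pair of group values.

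Of the 6 genes, 5 were measured above 0 in both groups and Tbx1 was listed at 0 in both. Tbx5 had 17.2 FPKM in WT against 15.7 FPKM in KD, a ratio of 0.910. By ratio, Tbx18 was the measured member that differed most, at 3.46 FPKM in WT against 6.56 FPKM in KD, a ratio of 1.89. The values of Tbx2, Tbx3, Tbx5 and Tbx20 were lower in KD than in WT, with log2 ratios from -0.25 to -0.07. A ratio past 1.5-fold in either direction was counted as past the fold, over the 11548 genes with at least 1 FPKM in either group and a value above 0 in both. Past that fold were 891 genes (7.72%), 533 of them higher in KD (4.62%) and 358 lower (3.10%). Among the 5 measured T-box genes, 1 was higher past this fold (Tbx18) and 0 were lower. With 5 genes, 1 past the fold is too few to set against that background.

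The T-box proteins recognise an element whose core was searched here as AGGTGTGA. At chamber promoters they are known to act with GATA factors and with Nkx2-5, so a GATA motif (AGATAA or TGATAA) and an NK2 motif (AAGTG) were searched with it, each on both strands, in windows from 250 bases before to 50 bases after the start of each gene. The windows come from RefSeq on GRCm38.p6 and hold 3 of the 6 members: Tbx1, Tbx18 and Tbx20. Tbx2, Tbx3 and Tbx5 had no entry in the set of windows used here. Printed are the windows of Tbx18, the measured member that differed most by ratio, and Tbx20, the most abundant measured member. With them is that of Nppa, a chamber gene long used as a T-box target. Each runs 5′ to 3′ on the strand of its gene, and capitals mark the motifs. Tbx18 lies on the minus strand (chr9:87731211-87731510), Tbx20 on the minus strand (chr9:24774254-24774553) and Nppa on the plus strand (chr4:148000472-148000771).
Tbx18: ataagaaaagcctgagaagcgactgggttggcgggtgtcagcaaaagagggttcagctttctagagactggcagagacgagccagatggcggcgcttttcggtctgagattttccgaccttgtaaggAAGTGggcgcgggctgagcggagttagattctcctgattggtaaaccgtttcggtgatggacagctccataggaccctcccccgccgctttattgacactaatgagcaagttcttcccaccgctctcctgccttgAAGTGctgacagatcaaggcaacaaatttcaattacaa
Tbx20: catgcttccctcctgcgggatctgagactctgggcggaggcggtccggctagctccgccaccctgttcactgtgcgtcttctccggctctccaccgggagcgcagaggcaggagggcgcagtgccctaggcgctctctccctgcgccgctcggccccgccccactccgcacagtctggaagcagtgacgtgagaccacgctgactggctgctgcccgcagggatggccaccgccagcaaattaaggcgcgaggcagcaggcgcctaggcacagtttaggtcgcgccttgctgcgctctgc
Nppa: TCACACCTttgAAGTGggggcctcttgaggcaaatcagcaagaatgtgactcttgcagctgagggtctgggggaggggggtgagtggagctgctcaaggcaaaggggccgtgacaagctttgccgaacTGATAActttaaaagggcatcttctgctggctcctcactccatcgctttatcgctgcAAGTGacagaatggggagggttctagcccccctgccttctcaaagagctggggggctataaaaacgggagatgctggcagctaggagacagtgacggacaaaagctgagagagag

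The Nppa window opens with the reverse complement of the T-box element, at 250 to 243 bases before the start. It also holds an NK2 motif at 239 to 235 and another at 65 to 61 bases before the start, and a GATA motif at 122 to 117 bases before it, none of which overlap. The Tbx18 window holds an NK2 motif at 123 to 119 bases before the start and another at 13 to 17 bases after it, while the letters of the other motifs are not in it. None of the searched motifs is in the Tbx20 window. The T-box element is in 1.28% of all RefSeq windows of this length (419 of 32851), the GATA motif in 18.6% and the NK2 motif in 46.4%. Of 78 genes of the members and lists described here that have a window, 1 holds the T-box element (Nppa), 24 the GATA motif and 36 the NK2 motif. A gene was counted if any of its windows held the motif, while the shares are per window. Some genes have more than 1 window (the 3 members with a window have 4), so counts and shares are not on the same scale. The windows also differ in base composition. That of Tbx20 has a GC content of 68.3% with 26 CpG, that of Tbx18 51.7% with 15 CpG and that of Nppa 54.7% with 6 CpG, against a median GC content of 52.7% over all windows. A match of letters describes the sequence only and does not show binding.

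**Figure D1:**
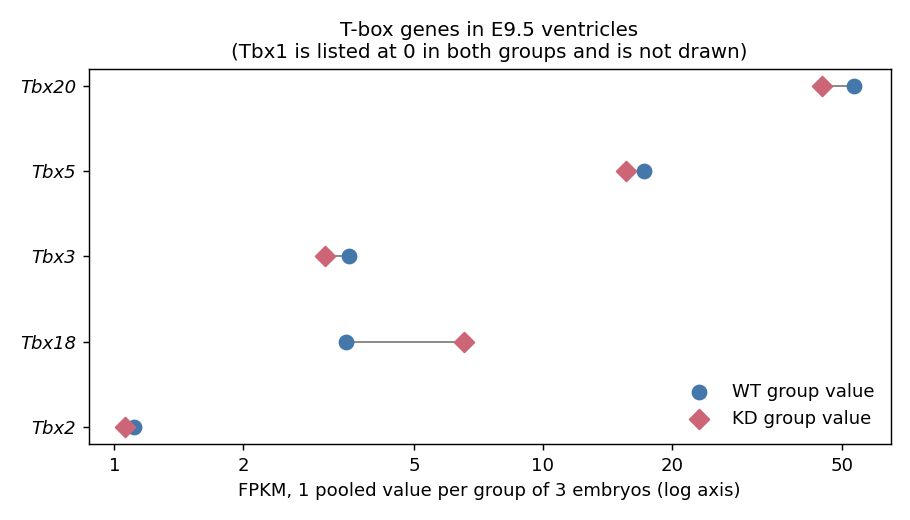
FPKM of 5 T-box genes (log axis), with 1 pooled value for the WT group (circles) and 1 for the KD group (diamonds), joined by a line. Tbx18 lies at 3.46 in WT and 6.56 in KD, while the KD value of the other 4 genes lies a little below that of WT. Tbx1 is listed at 0 and is not drawn.

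Tbx5 and Tbx20, the activators of the chamber programme, were the most abundant of the measured members. Tbx5 (ENSMUSG00000018263.11), the gene mutated in Holt-Oram syndrome, lies on chromosome 5 from 119834663 to 119885218 of mm10, on the plus strand. Its value was 17.2 FPKM in WT against 15.7 FPKM in KD, which differ by -1.55 FPKM and by -0.14 on the log2 scale. Of the 11606 genes with at least 1 FPKM in either group, 58 of them listed at 0 in the other, 63.6% had a lower level than Tbx5 in WT and 61.4% in KD. To set this beside genes of like abundance, genes whose level, the geometric mean of both groups, was within 1.5-fold of that of Tbx5 were taken. This window of levels was chosen after the values had been seen. Of these 2091 genes, 1057 (50.5%) had a ratio at least as far from 1 as that of Tbx5, and 48 (2.30%) were past 1.5-fold. The ratio of Tbx5 lay in the middle of the differences seen at its level, where the 5th and 95th percentiles of the log2 ratio were -0.33 and 0.37. The annotation of GENCODE gives Tbx5 3 transcripts, and places the start of the gene at 119832668, 1995 bases before the start in the table. The group value therefore describes the transcripts the authors counted and does not separate them.

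Tbx20 (ENSMUSG00000031965.15), a factor needed for growth of the ventricular myocardium, lies on chromosome 9 from 24720812 to 24774303 on the minus strand. It had 53.3 FPKM in WT against 44.8 FPKM in KD. The difference of -8.47 FPKM was the largest of the 5 measured genes in absolute terms, but the ratio was 0.841 (log2 ratio -0.25). At its level 12.6% of genes (158 of 1258) had a ratio as far from 1 or farther, and 1.03% (13 genes) were past 1.5-fold. The log2 ratio of Tbx20 was just inside the 5th percentile of these genes, which was -0.26. In WT 83.4% of the same 11606 genes lay below Tbx20, and in KD 81.0%. The ratio of Tbx20 to Tbx5 was 3.10 in WT and 2.86 in KD, so Tbx20 was the more abundant of the pair in both groups.

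Tbx2 and Tbx3, the repressors, were present at low levels. Tbx3 (ENSMUSG00000018604.18), a factor of the atrioventricular canal and the conduction system, lies on chromosome 5 from 119670669 to 119684601 on the plus strand, 150 kb from Tbx5. It had 3.53 FPKM in WT against 3.11 FPKM in KD, a ratio of 0.879 (log2 ratio -0.19). Of 2055 genes at its level, 55.2% had a ratio as far from 1 or farther, and 9.20% (189 genes) were past 1.5-fold. Tbx3 and Tbx5, the pair that shares this region of chromosome 5 with Tbx5ua, both had a slightly lower value in KD. So did Tbx20 on chromosome 9, Tbx2 on chromosome 11 and 49.1% of all genes compared. The ratio of Tbx5 to Tbx3 was 4.87 in WT and 5.04 in KD.

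Tbx2 (ENSMUSG00000000093.6), which represses chamber genes in the atrioventricular canal and the outflow tract, lies on chromosome 11 from 85832615 to 85841948 on the plus strand. It had 1.11 FPKM in WT against 1.06 FPKM in KD, a ratio of 0.952 (log2 ratio -0.07). Its level was near the lower limit of 1 FPKM set for the comparison, with 4.49% of the 11606 genes below it in WT and 3.01% in KD. Of 1133 genes within 1.5-fold of the level of Tbx2, 32.0% (363 genes) were past 1.5-fold, and 92.0% had a ratio as far from 1 as Tbx2 or farther. The filter sets these shares in part, since a gene at the lower end of the window passes it only with unequal group values. Of the 1356 genes of this window with any value above 0 in both groups, 27.9% were past 1.5-fold and 90.2% were as far from 1 as Tbx2. The T-box gene next to Tbx2 on this chromosome, Tbx4, a factor of the hindlimb and lung bud, lies 48.1 kb away and had 0.201 FPKM in WT and was listed at 0 in KD.

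Tbx18 (ENSMUSG00000032419.8) lies on chromosome 9 from 87702800 to 87731260 on the minus strand, 62.9 Mb from Tbx20. Its value was 3.46 FPKM in WT against 6.56 FPKM in KD, a difference of 3.09 FPKM and a log2 ratio of 0.92. Of the 11606 genes 25.6% lay below Tbx18 in WT and 40.0% in KD. Of 2188 genes at its level, 26 (1.19%) had a ratio as far from 1 or farther in either direction, and 132 (6.03%) were past 1.5-fold. In WT Tbx18 was level with Tbx3, with a ratio of Tbx18 to Tbx3 of 0.980, and in KD it stood at 2.11 times Tbx3. The ratio of Tbx5 to Tbx18 was 4.97 in WT and 2.39 in KD, and that of Tbx20 to Tbx18 was 15.4 in WT and 6.84 in KD.

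**Figure D2:**
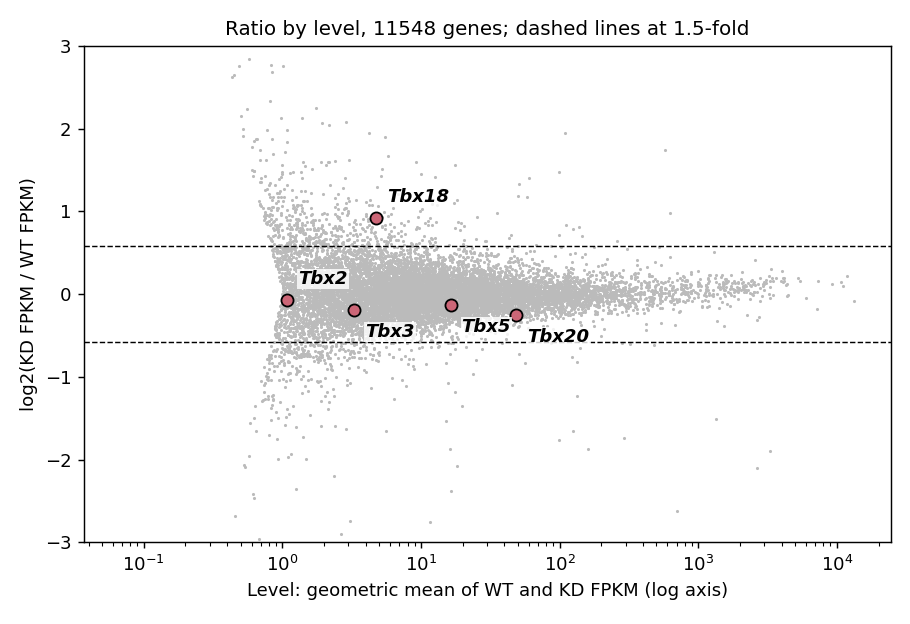
Log2 ratio of KD to WT FPKM against the geometric mean of both groups (log axis), with 1 point for each of the 11548 genes compared and dashed lines at 1.5-fold (11 genes outside the plotted range are not drawn). Tbx18 lies above the upper line at 0.92, and Tbx2, Tbx3, Tbx5 and Tbx20 lie between the lines.

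Markers of the epicardium, in which Tbx18 is known to be expressed, and a joint list for the sinus venosus and atrium were counted beside it. Of 8 epicardial markers, 6 could be compared and 5 of these were higher past 1.5-fold. Of the 5, Aldh1a2 and Bnc1 reached 1 FPKM in KD but not in WT, so they entered the comparison through the group in which they were higher. With at least 1 FPKM required in both groups, 3 of 4 were higher past the fold (Tcf21, Upk3b and Upk1b). Tcf21, a transcription factor of epicardial cells, had 11.9 FPKM in WT against 25.5 FPKM in KD (log2 ratio 1.10). The uroplakins Upk3b and Upk1b, surface proteins of mesothelium, had log2 ratios of 1.41 (7.80 and 20.7 FPKM) and 1.27 (9.17 and 22.1 FPKM). Aldh1a2, an enzyme of retinoic acid synthesis, had 0.872 FPKM in WT against 1.74 FPKM in KD, and Bnc1, a transcription factor of mesothelium, had 0.439 FPKM in WT against 1.62 FPKM in KD. Wt1, a defining transcription factor of the epicardium, was the sixth, at 13.8 FPKM in WT against 19.2 FPKM in KD, and was not past the fold. The 8 markers summed to 44.4 FPKM in WT against 92.0 FPKM in KD, and none was listed at 0. Of 7 markers of the sinus venosus and atrium, 4 could be compared and 3 of these were higher past the fold at low levels. Of the 3, Nr2f1 and Vsnl1 entered through their KD value alone, and with at least 1 FPKM in both groups 1 of 2 (Nr2f2) was higher and Hcn4 had a lower value in KD. These were Nr2f2 (2.01 and 4.15 FPKM), Nr2f1 (0.552 and 1.07 FPKM), both nuclear receptors of atrial cells, and Vsnl1 (0.555 and 1.14 FPKM), a calcium sensor gene, with log2 ratios from 0.96 to 1.04. Over all genes compared 4.62% were higher past the fold, and in the window of Tbx2 with no filter, which takes in Nr2f1, Vsnl1, Aldh1a2 and Bnc1, 27.9% were past it in either direction. With a pseudocount of 1 FPKM, Nr2f2 alone of these and the epicardial genes other than Aldh1a2 were still past the fold. Hcn4, a pacemaker channel, had 3.57 FPKM in WT against 2.89 FPKM in KD, the sinus factor Shox2 had 0.282 and 0.589 FPKM, and Sln was listed at 0 in both groups. The 7 markers summed to 6.99 FPKM in WT against 9.96 FPKM in KD. In bulk ventricles more cells of a type and more RNA per cell cannot be told apart, and the part of these tissues in the higher value of Tbx18 was not tested.

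Tbx1 (ENSMUSG00000009097.10), a factor of the pharyngeal mesoderm and second heart field, was listed at 0 in both groups. The table places it on chromosome 16 from 18581713 to 18586969 on the minus strand, which spans 5257 bases, while GENCODE gives the gene 9693 bases from 18580979 to 18590671. A 0 in this table can be a failed estimate, since Actc1, the cardiac actin gene that every heart muscle cell uses, is also listed at 0 in both groups. The other genes of the second heart field and pharynx are given beside it. Isl1, a defining factor of the second heart field, was low, at 0.559 FPKM in WT against 0.361 FPKM in KD. Of the 10 genes in this list 7 could be compared. Past 1.5-fold, 0 were higher and 1 was lower, beside 4.62% and 3.10% of all genes compared. The median log2 ratio was -0.05, with Foxc1 entering through its KD value alone. With at least 1 FPKM in both groups the median was -0.14, and with no filter -0.13. The lower gene was Fgf8, a growth factor of the pharynx, with 2.45 FPKM in WT against 1.41 FPKM in KD, which was not past the fold with a pseudocount of 1 FPKM (log2 ratio -0.52). Among the genes with the highest WT level were Foxc2 (17.8 and 25.1 FPKM), a forkhead factor, and Wnt11 (6.32 and 6.10 FPKM), a signalling molecule of the outflow tract.

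The summed level of the 6 members, with Tbx1 at its listed 0, was 78.6 FPKM in WT against 71.2 FPKM in KD, a log2 ratio of -0.14. Tbx20 held 67.8% of this sum in WT and 63.0% in KD, and Tbx5 held 21.9% and 22.0%. The share of Tbx18 was 4.41% in WT and 9.21% in KD, while that of Tbx3 was 4.50% and 4.36% and that of Tbx2 1.41% and 1.49%. The order of the levels of the 5 measured genes in WT was Tbx20, Tbx5, Tbx3, Tbx18 and Tbx2, and in KD Tbx18 came before Tbx3. Tbx1, listed at 0, has no known place in this order. Since the spread between embryos is not known, it cannot be said which neighbours in this order differ. In WT Tbx20 stood at 48.0 times Tbx2 and in KD at 42.4 times.

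**Figure D3:**
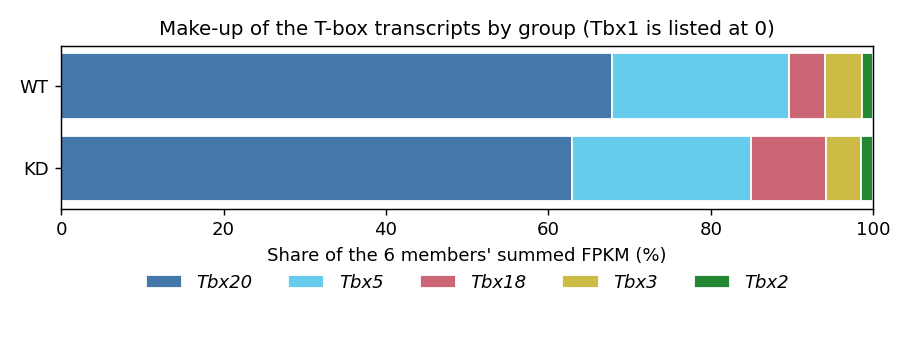
Share of the summed FPKM of the 6 T-box genes held by each gene, in percent, with 1 bar for the WT group and 1 for the KD group. The share of Tbx18 is 4.41% in WT and 9.21% in KD, and that of Tbx20 is 67.8% and 63.0%.

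The table holds 17 T-box genes in all, of which 6 reached 1 FPKM in either group. Beside the 5 measured members this was Mga, a large protein with a T-box and a second DNA-binding domain that pairs with Max, at 3.13 FPKM in WT against 3.15 FPKM in KD (log2 ratio 0.01). The other 10 relatives were listed below 1 FPKM in both groups. The highest value among them was 0.240 FPKM, for Tbx6, a factor of presomitic mesoderm, in KD. T (Brachyury), the factor of the notochord and primitive streak for which the family is named, and Tbx19 were listed at 0 in both groups. As for Tbx1, such a 0 does not show that a gene was below 1 FPKM.

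Partners of T-box factors, proteins that bind DNA with them or carry their effect on chromatin, were measured in both groups. All 12 of the list could be compared. Past 1.5-fold, 1 was higher and 0 were lower, beside 4.62% and 3.10% of all genes compared, and the median log2 ratio was -0.00. Nkx2-5, a homeodomain factor that binds DNA together with Tbx5 and Tbx20, had 224 FPKM in WT against 247 FPKM in KD (log2 ratio 0.14). Gata4, a zinc finger factor that binds with Tbx5, had 45.1 and 52.9 FPKM (0.23). Smarca4, the ATPase of the BAF chromatin remodelling complex, had 32.2 and 32.1 FPKM (-0.01). Smarcd3, the BAF subunit of the heart, had the lowest log2 ratio, -0.44 (18.5 and 13.7 FPKM). Tle3, a Groucho corepressor, was the gene past the fold, with 3.38 FPKM in WT against 5.39 FPKM in KD, a ratio of 1.59. It was not past the fold with a pseudocount of 1 FPKM (log2 ratio 0.54).

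The chamber genes on which Tbx5 and Tbx20 are known to act were measured at high levels. All 8 could be compared. Past 1.5-fold, 1 was higher and 0 were lower, beside 4.62% and 3.10% of all genes compared. The KD value was above that of WT in 6 and below it in 2, while 49.1% of all genes compared were below it. The median log2 ratio was 0.18 against 0.00 over all genes compared. Nppa, the gene of atrial natriuretic peptide, whose window holds the T-box element printed above, had 2588 FPKM in WT against 2967 FPKM in KD (log2 ratio 0.20). Nppb, its neighbour on chromosome 4 and the gene of B-type natriuretic peptide, had 485 FPKM in WT against 360 FPKM in KD (-0.43). Smpx, a small protein of striated muscle, had 618 and 612 FPKM (-0.01). Gja5, which encodes connexin 40 and is a known target of Tbx5, was past the fold with 7.02 FPKM in WT against 12.1 FPKM in KD, a log2 ratio of 0.79. Of these 8 genes 7 have a promoter window. Counted over all windows of a gene, 1 of the 7 (Nppa) holds the T-box element, 4 hold the GATA motif and 3 the NK2 motif. These counts per gene are not on the scale of the shares per window given above. Gja5 holds the NK2 motif and not the other letters.

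The list of the atrioventricular canal and of BMP signalling, which is known to act upstream of Tbx2 and Tbx3, had 12 genes, and all 12 could be compared. Past 1.5-fold, 1 was higher and 2 were lower, beside 4.62% and 3.10% of all genes compared. A lower value in KD was seen in 9 of the 12, beside 49.1% of all genes compared, and the median log2 ratio was -0.30 beside 0.00. Bmp4, a BMP ligand, had 6.52 FPKM in WT against 2.96 FPKM in KD, a log2 ratio of -1.14. Msx1, a homeobox target of BMP signals, had 5.60 and 2.92 FPKM (-0.94), and its paralogue Msx2 had 8.98 and 6.26 FPKM (-0.52). Bmp2, the ligand of the atrioventricular canal known to switch on Tbx2, was above its WT value, with 5.18 and 6.34 FPKM (0.29). The most abundant genes of the list were Bmp7 (77.4 and 75.2 FPKM), Mycn (72.6 and 53.9 FPKM), a transcription factor of cell proliferation, and Hey2 (31.2 and 34.0 FPKM), which keeps the atrioventricular programme out of the chambers. Hey1, the relative of Hey2 in the chambers, was the gene higher past the fold, at 13.3 FPKM in WT against 23.1 FPKM in KD (0.80). In the same samples Tbx2 and Tbx3 themselves had log2 ratios of -0.07 and -0.19.

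**Figure D4:**
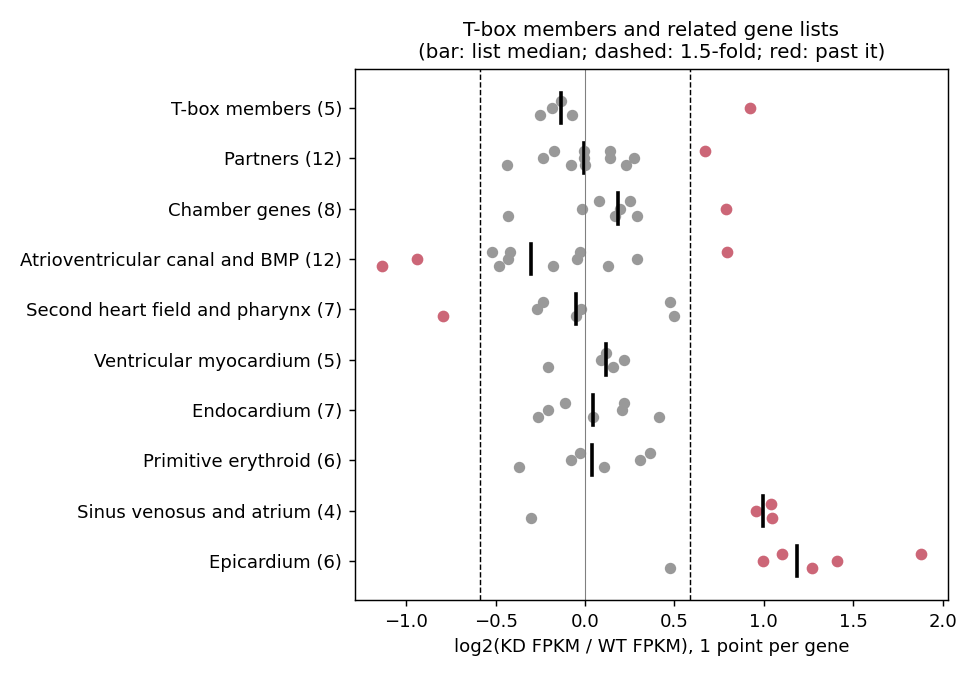
Log2 ratio of KD to WT FPKM for the 5 measured T-box genes and for related gene lists, with 1 point per gene, a bar at the median of each list and dashed lines at 1.5-fold (genes past it in red; the number compared is in brackets). Of the T-box genes Tbx18 alone lies past the fold, at 0.92. Of the red points to the right in the lowest lists, Aldh1a2, Bnc1, Nr2f1 and Vsnl1 reached 1 FPKM in KD only.

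The labelled tissue was checked against its markers. The ventricular genes Myl2 (10924 and 12702 FPKM), Myl3 (3955 and 4407 FPKM) and Hand1 (86.8 and 94.1 FPKM) were present in both groups, as were Myh7 and Irx4. Of these 5, 0 were past 1.5-fold, beside 7.72% of all genes compared, with a median log2 ratio of 0.12. Endocardial (7 compared) and primitive erythroid markers (6 compared) each had 0 genes past the fold and a median log2 ratio of 0.04, with sums of 133 and 146 FPKM and of 11448 and 11525 FPKM. Neural crest markers summed to 2.36 FPKM in WT against 3.42 FPKM in KD, with Twist1 past the fold (1.98 and 3.23 FPKM) and Dlx2 and Foxd3 listed at 0 in both groups. Without Twist1 the sum was 0.380 FPKM in WT against 0.185 FPKM in KD, with Dlx5 at 0.363 and 0.134 FPKM. The limb bud and the liver and yolk sac markers with a value above 0 were all below 1 FPKM, the highest being Ttr with 0.790 FPKM in KD, and Hoxd12, Shh, Alb and Fgb were listed at 0 in both groups.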

How the data were processed

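RNA-seq of ventricles from 3 WT and 3 KD embryos was used. Libraries were made by Smart-Seq2 from total RNA. The submitters' processing notes name TopHat, Bowtie2, Cuffdiff and the build mm10, with versions not given in the sources used here. The authors deposited 1 Cuffdiff table with 1 FPKM per gene and group, and 0 columns of single embryos. Its columns of fold change, test statistic, p and q hold the authors' own comparison and were not used. The library depth is unknown, and the number of embryos limits the precision.

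The ratio of KD to WT FPKM was given as log2 with no pseudocount. Genes with at least 1 FPKM in either group and above 0 in both were compared, and a ratio of at least 1.5 or its inverse was counted. Table starts had 1 added and were set beside GENCODE release M21. The T-box members and gene lists were chosen with earlier results of these data known. All 6 members are named, with every list gene past the fold and the 3 highest WT genes of each target or partner list, except 1 gene that is not reported here. Other list genes in the text were chosen after their values were seen. Alternatives were pseudocounts of 1 and 0.1 FPKM, other scalings, filters and folds, and narrower, wider and unfiltered windows of levels, the last chosen after seeing the data. The steps for the ratio, the filter and the fold count were tested on simulated data with exact changes of 2-fold and no noise. That test did not cover the windows, lists or motifs. Python 3.11.15, NumPy 2.4.6, pandas 2.3.3 and Matplotlib 3.10.9 were used.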

Additional observations from a re-analysis of the deposited data

How the results depend on the processing

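Over the pseudocounts and scalings, log2 ratios of KD to WT kept their sign in all 5 measured T-box genes: 0.76 to 0.92 for Tbx18, -0.28 to -0.24 for Tbx20, -0.22 to -0.14 for Tbx3, -0.17 to -0.13 for Tbx5 and -0.10 to -0.04 for Tbx2. The lowest value of Tbx18, 0.76, came with a pseudocount of 1 FPKM, which draws ratios of low genes toward 1 by its construction. At a fold of 2, 0 members were past the fold (2.41% of all genes), and 1 member (Tbx18) was past it at the lower fold, with a pseudocount of 1 FPKM, with log2 ratios less their median and under each filter. It passed the filter of at least 5 FPKM through its KD value alone. Percentages of all genes past the fold were 21.8% at the lower fold tried, 3.18% with a pseudocount of 1 FPKM, 21.1% with no filter, 5.01% with at least 1 FPKM in both groups and 2.92% with at least 5 FPKM in either. In the lists, a pseudocount of 1 FPKM left 0 genes past the fold among partners, second heart field and neural crest and 1 of the sinus venosus and atrial genes, whose median log2 ratio was then 0.44 (0.95 for the epicardium). A fold of 2 left 0 among partners, chamber, second heart field and neural crest genes and 1 (Bmp4) among those of the atrioventricular canal. With no filter 2 T-box relatives, 2 second heart field, 5 sinus venosus and atrial and 3 neural crest genes were past the fold. With at least 1 FPKM in both groups, a filter chosen for the lists after seeing the data, 3 epicardial and 1 of the sinus venosus and atrial genes were past the fold, the latter list with a median of 0.37. Scalings shifted log2 ratios by at most 0.03. The labels give no pairing of WT with KD embryos, so a paired analysis does not apply. Because each group is given as 1 pooled value, no embryo could be left out, and the spread between embryos limits every value.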
